A study of Mus musculus with 9 samples.

Results

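The lipogenic and triglyceride synthesis genes are 10 genes that build fatty acids and assemble them into triglyceride: Lpin1, Scd1, Fasn, Acaca, Acly, Srebf1, Dgat1, Dgat2, Gpam and Me1. They were taken as a named list of pathway genes, chosen with earlier results of these data known. Every probe set that the platform annotation gives to 1 of them alone was included. These were 22 of the 45037 probe sets that are not controls, for 10 of 18193 genes measured. Acly had 6 probe sets, Fasn and Srebf1 had 1 each, and the other 7 genes had 2 each. Affymetrix arrays were run on gastrocnemius, a muscle of the calf, taken at day 14 after surgery from young adults of the outbred CD-1 mouse stock. Testosterone mice were castrated and given a 2.5 mg testosterone pellet with 60-day release under the skin. Castration mice received placebo pellets after castration, and sham mice received them after sham surgery. Testosterone and castration mice thus shared the castration, and castration and sham mice shared the placebo pellet. Each group had 3 arrays, each array held RNA pooled from 3 animals, and the animals had not been fasted. Every SD is thus over pools, and the precision is limited by having 3 of them in each group. Fat and connective tissue were trimmed off the muscle at dissection, per the labels' protocols.

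Fatty acid synthesis starts in the cytosol, where acetyl-CoA split from citrate is carboxylated to malonyl-CoA and built into palmitate with NADPH as the reductant. The products are desaturated and then attached, step by step, to glycerol 3-phosphate to give triglyceride. SREBP-1, the product of Srebf1, is a transcription factor known to drive many of these enzymes in liver and fat. Adipocytes express the pathway strongly, and Adipoq, which encodes the hormone adiponectin, is a defining adipocyte transcript. In whole muscle the signal of such a gene can come from muscle fibres and from adipocytes lying between them. In such bulk samples a smaller number of cells of a type and less RNA per cell cannot be told apart.

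Promoter sequences from RefSeq (build GRCm38.p6), from 250 bases before to 50 after each start, were found for 7 of the 10 genes and numbered 11. The promoters of Lpin1 and Fasn are shown because the 3 groups did not overlap for Lpin1, and Fasn correlated with Adipoq at r = 0.93. Fasn was also 3.28-fold higher with testosterone than after castration. Adipoq itself was low on all 3 castration arrays, so relations to treatment and to Adipoq cannot be fully told apart. Lpin1 lies on chr12:16610917-16611216, minus strand, and its capitals mark the steroid receptor half-site AGAACA, which is read on the opposite strand. Fasn lies on chr11:120824498-120824797, minus strand, and its capitals mark the NF-Y box CCAAT on either strand, with an overlapping pair on opposite strands.
Lpin1: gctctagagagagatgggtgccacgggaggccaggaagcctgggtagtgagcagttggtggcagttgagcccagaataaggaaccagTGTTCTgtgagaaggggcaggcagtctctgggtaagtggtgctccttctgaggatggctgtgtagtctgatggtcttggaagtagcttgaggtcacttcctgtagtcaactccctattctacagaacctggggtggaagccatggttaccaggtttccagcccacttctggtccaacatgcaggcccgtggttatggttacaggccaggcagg
Fasn: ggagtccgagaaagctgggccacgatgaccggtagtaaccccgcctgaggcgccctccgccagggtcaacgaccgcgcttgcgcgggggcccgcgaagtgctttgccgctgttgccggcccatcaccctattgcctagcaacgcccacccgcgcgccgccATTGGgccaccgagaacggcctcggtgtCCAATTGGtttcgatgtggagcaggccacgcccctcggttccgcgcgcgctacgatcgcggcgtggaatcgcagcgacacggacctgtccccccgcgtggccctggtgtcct
The half-site AGAACA was in the promoters of Lpin1 and Acaca, 2 of 11, and in 19.0% of all 32851 promoters. CCAAT was in 6 of 11 member promoters, with 3 matches in that of Fasn, and in 37.4% of all promoters. The E-box CACGTG, the sterol regulatory element TCACNCCAC and a full steroid receptor element (2 half-sites facing each other), searched on both strands, were in 0 of 11, against 7.15%, 1.24% and 0.00913% of all promoters. A match is a description of the letters in this window, and its absence says nothing of the factor.

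Expression is given as log2 values per probe set, which compare arrays for 1 probe set and not probe sets with each other. They ran from 2.22 to 14.24 over the table, and array medians lay between 3.15 and 3.26. The 8 muscle fibre markers, among them Acta1 and Ckm, lay between 12.04 and 14.24 on all arrays. Of the 22 probe sets, 15 lay above the array median on all 9 arrays and included at least 1 for each of the 10 genes, and the other 7 were dim on at least some arrays. Testosterone 2 and sham 2 stood apart from the remaining arrays, with mean correlations to the others of 0.981 and 0.972, against 0.989 to 0.991 for the other 7. On testosterone 2 the 3′ probe set of the Gapdh control exceeded the 5′ one by log2 1.10, against 0.02 to 0.28 on the other 8 arrays. Its part in the results below was not tested. Many of the member differences and correlations with Adipoq are also given without testosterone 2 and sham 2. The fits with Adipoq in the model, the correlations among genes, and the other gene and marker lists are given on all 9 arrays only.

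Over the arrays, Scd1, Fasn and Acly, by their probe sets of highest mean, varied with Adipoq within groups as well as between them. Dgat2 did so less closely. Adipoq spanned only 5.29 to 5.58 on castration arrays, so the relation within groups comes mostly from testosterone and sham arrays. The other probe sets of Acly and Dgat2 had lower r with Adipoq, and for some of Acly it was negative. The relation for Acaca rested on 2 arrays, and Dgat1 varied with Adipoq within groups while castration and sham had nearly the same mean. In Lpin1, Srebf1, Scd1 and Dgat2 every testosterone array lay above every castration array. Of these, Lpin1 and Srebf1 varied least with Adipoq over the 9 arrays. Without testosterone 2 and sham 2 that order did not hold, with r of 0.63 for Lpin1, 0.55 for Srebf1 and 0.59 for Dgat2. Gpam and Me1 had nearly the same value in every group. None of the 22 probe sets passed an adjusted p of 0.05 in any comparison.

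**Figure D1:**
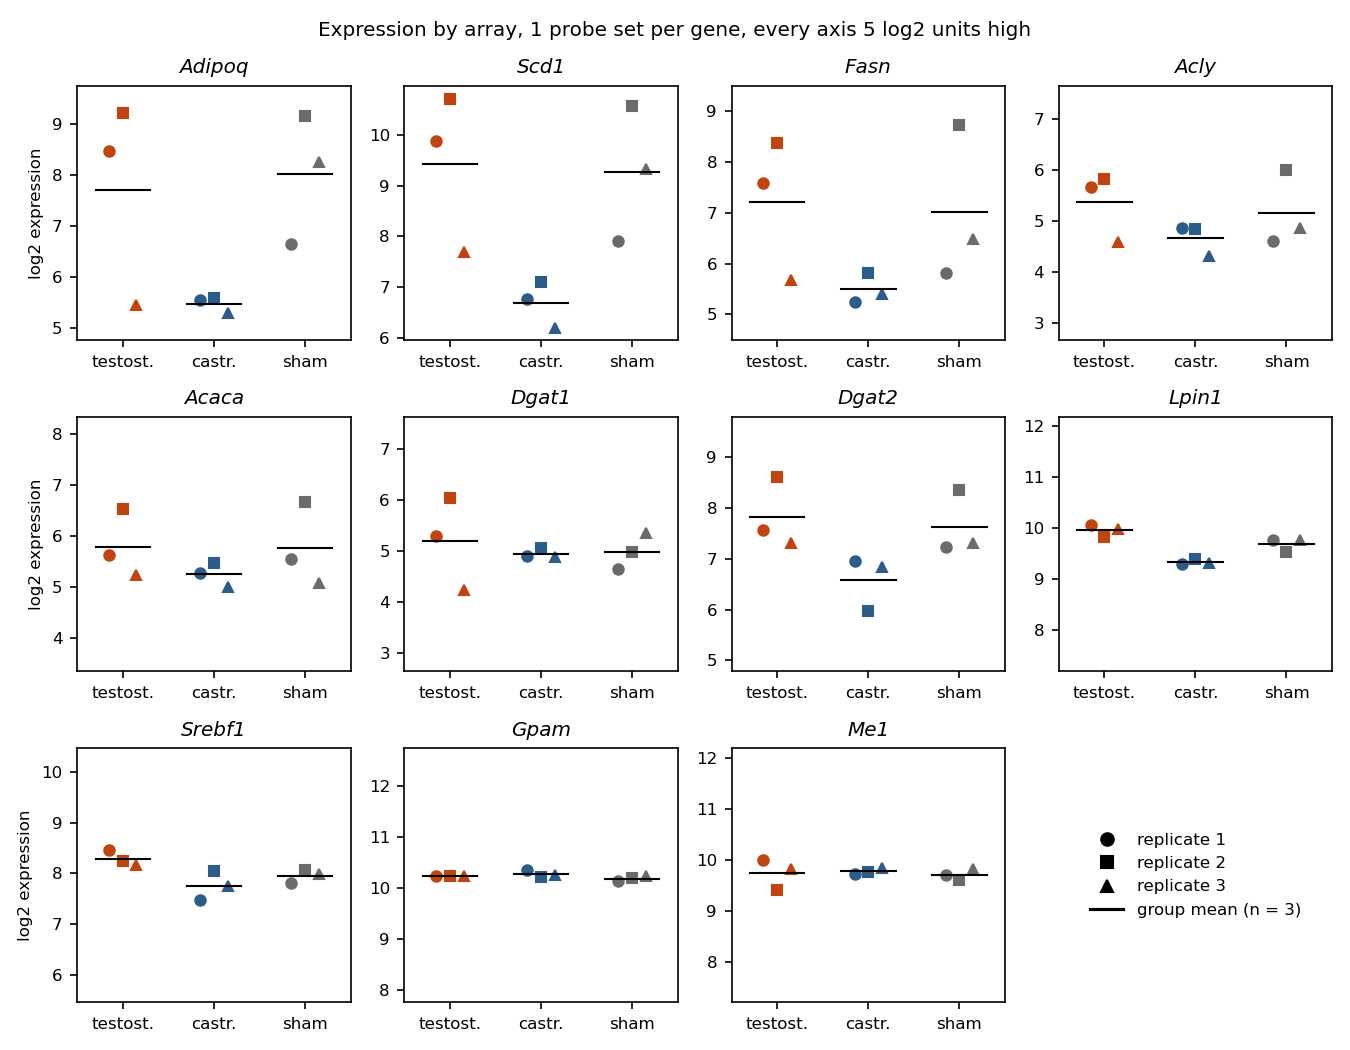
Log2 expression (y axis, each 5 log2 units high) of Adipoq and of the probe set that stands for each of the 10 genes on the 3 testosterone, 3 castration and 3 sham arrays, with a line at each group mean. Scd1 spans 4.51 log2 units over the arrays and Gpam 0.22, and testosterone 3 lies near the castration arrays for Adipoq, Fasn and Acly but not for Lpin1.

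Adipoq itself was at 8.47, 9.21 and 5.45 on testosterone arrays 1 to 3, at 5.54, 5.58 and 5.29 on castration arrays, and at 6.65, 9.16 and 8.26 on sham arrays. The 3 castration arrays and testosterone 3 were low, sham 1 was intermediate, and the other 4 arrays were high. The mean deviation of 9 measured adipocyte markers ran from −0.47 to 0.96 on testosterone arrays, from −0.57 to −0.49 on castration arrays and from −0.32 to 0.97 on sham arrays. Adipoq was above the array median on all 9 arrays. On testosterone 2 the mean deviation of the macrophage and lymphocyte markers was 1.21, against −0.29 to 0.30 on the other arrays, and on sham 2 that of the epidermal markers was 0.76, against −0.26 to 0.21. These are the 2 arrays with the highest Adipoq, and the part of those cells in the member values was not tested.

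Among the enzymes of fatty acid synthesis, Acly, ATP citrate lyase, which makes cytosolic acetyl-CoA, had log2 values of 5.67, 5.83 and 4.59 on testosterone arrays, 4.86, 4.83 and 4.30 on castration arrays, and 4.60, 6.0 and 4.86 on sham arrays (1451666_at). Testosterone 1, testosterone 2 and sham 2 were high, and all 3 groups overlapped. Its difference was 0.70 (SE 0.42) for testosterone against castration and −0.49 (SE 0.42) for castration against sham, with limma adjusted p of 1.00 and 0.883. Without testosterone 2 and sham 2 the differences were 0.46 and −0.07.

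The other 5 probe sets of Acly did not all follow that pattern. The probe set 1439459_x_at ran from 3.47 to 6.79 and was highest on testosterone 2, whereas 1425326_at ran from 3.32 to 5.04 and was highest on sham 2. The remaining 3 varied by 0.23 to 0.44 over the arrays at low levels of 2.32 to 3.42. The suffix x marks probe sets whose probes may bind other transcripts.

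Acaca, acetyl-CoA carboxylase 1, which makes malonyl-CoA, was at 5.63, 6.53 and 5.22 on testosterone arrays, 5.27, 5.47 and 5.0 on castration arrays, and 5.54, 6.68 and 5.07 on sham arrays (1434185_at). Testosterone 2 and sham 2 were the only arrays above 5.63, and the groups overlapped. Acaca differed by 0.55 (SE 0.43) between testosterone and castration and by −0.52 (SE 0.43) between castration and sham. These were 0.18 and −0.06 without testosterone 2 and sham 2. Its second probe set was dim, from 2.85 to 3.63, and highest on sham 2.

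Fasn, fatty acid synthase, which makes palmitate, was at 7.58, 8.36 and 5.68 on testosterone arrays, 5.25, 5.82 and 5.41 on castration arrays, and 5.82, 8.73 and 6.48 on sham arrays. Testosterone 3 lay inside the castration range, and sham 1 lay at its upper end. The means were 7.21 ± 1.38 with testosterone, 5.49 ± 0.30 after castration and 7.01 ± 1.52 in sham (SD, n = 3 each). The fold sizes were 3.28 for testosterone over castration and 2.86 for castration below sham (SE 0.83 on the log2 scale for both, limma adjusted p = 1.00 and 0.883). Without testosterone 2 and sham 2 the log2 differences were 1.14 and −0.66, against 1.71 and −1.52 with them.

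Scd1, stearoyl-CoA desaturase 1, which makes monounsaturated fatty acids, had the widest spread of the 10 genes. It was at 9.87, 10.71 and 7.69 on testosterone arrays, 6.76, 7.10 and 6.20 on castration arrays, and 7.91, 10.57 and 9.33 on sham arrays. All 3 castration arrays lay below every testosterone and sham array, and testosterone 3 was the lowest array outside castration. Scd1 was 6.66-fold higher with testosterone than after castration (log2 2.73, SE 0.84, limma adjusted p = 1.00). It was 5.99-fold lower after castration than in sham (log2 −2.58, SE 0.84, limma adjusted p = 0.883). The log2 differences were 2.09 and −1.93 without testosterone 2 and sham 2. The second probe set of Scd1 was dim, at 2.65 to 3.28, and differed by 0.32 and −0.21 in these comparisons.

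Me1, the cytosolic malic enzyme that supplies NADPH, was at 10.001, 9.40 and 9.83 on testosterone arrays, 9.72, 9.77 and 9.85 on castration arrays, and 9.70, 9.62 and 9.82 on sham arrays. The groups overlapped, testosterone 2 was lowest, and the differences were −0.03 (SE 0.14) for testosterone against castration and 0.07 (SE 0.14) for castration against sham. Its second probe set was at 7.38 on testosterone 2 and between 8.32 and 8.83 on the other arrays.

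Among the genes of triglyceride assembly, Gpam, the mitochondrial acyltransferase that makes the first addition to glycerol 3-phosphate, varied least. It ran from 10.23 to 10.24 on testosterone arrays, from 10.21 to 10.36 on castration arrays and from 10.14 to 10.23 on sham arrays. The differences were −0.04 (SE 0.06) for testosterone against castration and 0.09 (SE 0.06) for castration against sham, and the groups overlapped in both. Its second probe set ran from 3.04 to 3.85 and was lowest on testosterone 2.

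Lpin1, a phosphatidate phosphatase that makes the diacylglycerol used for triglyceride, was at 10.06, 9.83 and 9.99 on testosterone arrays, 9.30, 9.39 and 9.30 on castration arrays, and 9.77, 9.54 and 9.76 on sham arrays (1418288_at). The 3 groups did not overlap at all: every testosterone array was above every sham array, and every sham array above every castration array. Lpin1 averaged 9.96 ± 0.12 with testosterone and 9.33 ± 0.05 after castration (SD, n = 3 each), a 1.55-fold higher level (log2 0.63, SE 0.09, limma adjusted p = 0.154). After castration it was lower than in sham, where it averaged 9.69 ± 0.13, by log2 −0.36 (SE 0.09, limma adjusted p = 0.883). With testosterone it was above sham by log2 0.27 (SE 0.09, limma adjusted p = 0.797).

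The second Lpin1 probe set (1426516_a_at) had 9.36, 8.99 and 9.21 on testosterone arrays, 8.76, 8.64 and 8.57 on castration arrays, and 9.19, 8.78 and 9.06 on sham arrays. Castration arrays were again below all others, while testosterone and sham arrays overlapped. Its differences were 0.53 (SE 0.13) for testosterone against castration, −0.35 (SE 0.13) for castration against sham and 0.17 (SE 0.13) for testosterone against sham. The Lpin1 difference between testosterone and castration passed at a limma adjusted p of 0.0401 without testosterone 2 and sham 2, 0.0144 with array weights and 0.0252 after repeated quantile normalisation. Over all alternatives its adjusted p ran from 0.0144 to 0.832 and its log2 difference from 0.58 to 0.72.

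Dgat1 and Dgat2 encode unrelated enzymes that add the last acyl chain. Dgat1 was at 5.30, 6.04 and 4.23 on testosterone arrays, 4.90, 5.05 and 4.88 on castration arrays, and 4.64, 4.97 and 5.36 on sham arrays (1418295_s_at). The testosterone arrays included both the highest and the lowest value, and the difference from castration was 0.24 (SE 0.39). It became −0.18 without testosterone 2. Against sham, castration arrays differed by −0.04 (SE 0.39). The second Dgat1 probe set ran from 3.13 to 3.61, with differences of 0.10 and −0.10. Dgat2 was at 7.56, 8.60 and 7.31 on testosterone arrays, 6.96, 5.97 and 6.83 on castration arrays, and 7.23, 8.35 and 7.30 on sham arrays (1422678_at).

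All castration arrays were below every other array for this Dgat2 probe set. It was 2.36-fold higher with testosterone than after castration (limma adjusted p = 1.00) and 2.06-fold lower after castration than in sham (limma adjusted p = 0.883). Without testosterone 2 and sham 2 the log2 differences were 0.85 and −0.68, against 1.24 and −1.04 with them. Its second probe set differed in the same directions by 0.55 and −0.81, with overlapping groups in both comparisons.

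Srebf1, the transcription factor gene, was at 8.46, 8.25 and 8.17 on testosterone arrays, 7.47, 8.05 and 7.76 on castration arrays, and 7.82, 8.06 and 7.99 on sham arrays. Every testosterone array lay above every castration and sham array, and castration and sham overlapped. It was 1.45-fold higher with testosterone than after castration (log2 0.53, SE 0.15, limma adjusted p = 1.00). Castration arrays differed from sham by −0.20 (SE 0.15). Against sham the testosterone level was higher by log2 0.34 (SE 0.15, limma adjusted p = 0.797).

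**Figure D2:**
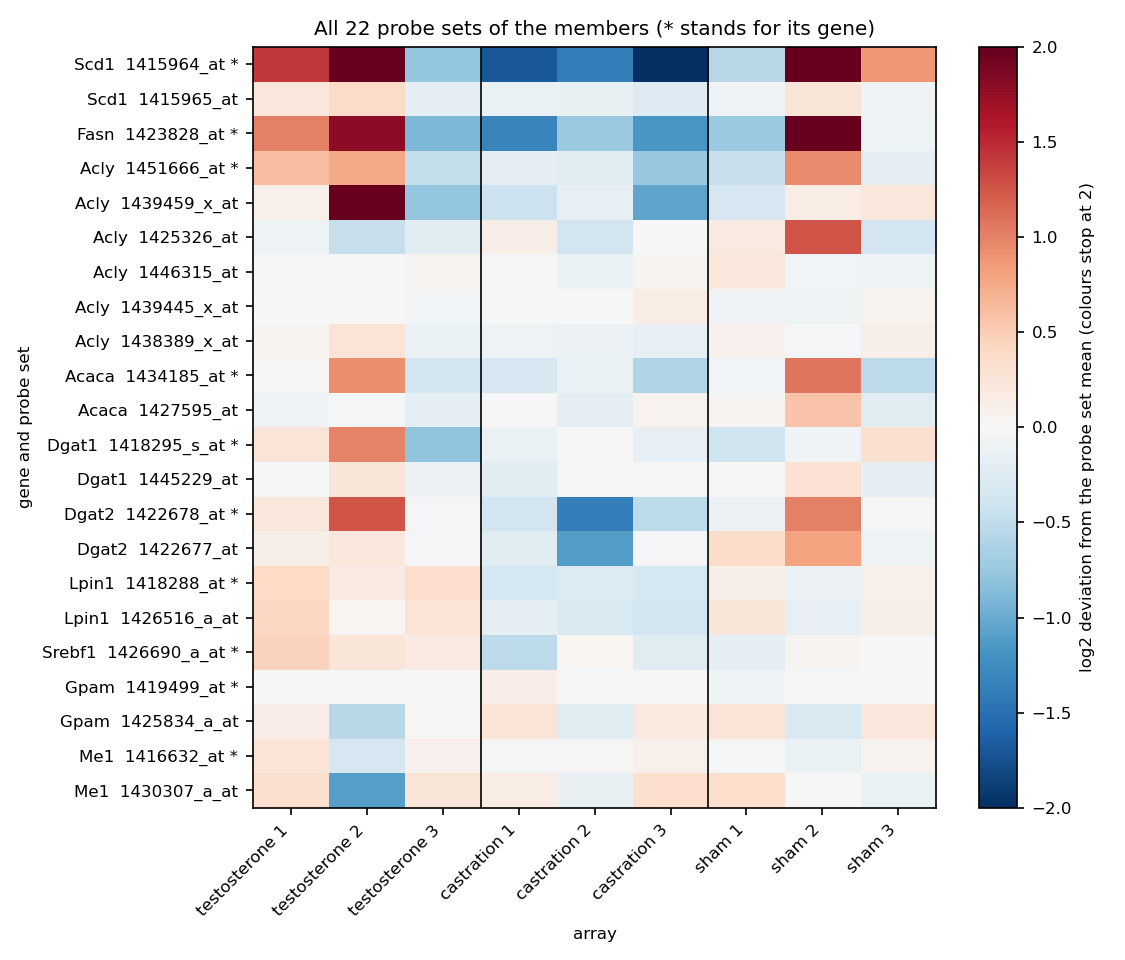
Log2 deviation from the probe set mean (colour) of all 22 member probe sets (rows) on the 9 arrays (columns, testosterone, castration and sham, parted by lines). The deviations are widest for Scd1 and Fasn, positive on testosterone 1, testosterone 2 and sham 2 and negative on the castration arrays, while the rows of Lpin1 differ between the groups and the row of Gpam 1419499_at is nearly blank.

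In limma, 0 of 45037 probe sets passed in any of the 3 comparisons (0% called), and the smallest limma adjusted p was 0.0872 for testosterone against castration, 0.125 for castration against sham and 0.797 for testosterone against sham. For testosterone against castration, 5 of 22 member probe sets were higher at an unadjusted p under 0.05, where 1.47% of all probe sets were, and 0 were lower, where 1.55% were. The 5 were both probe sets of Lpin1 and 1 each of Scd1, Dgat2 and Srebf1. The same 5 were those whose testosterone arrays all lay above the castration arrays, which held for 3.85% of all probe sets. In 0 of 22 the testosterone arrays lay wholly below, against 4.09%. The log2 difference was above 0 in 15 of 22, against 49.7% of all.

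For castration against sham, 5 of 22 were lower at an unadjusted p under 0.05, where 1.7% of all were, and 0 were higher, where 2.5% were. They were both probe sets of Lpin1 and of Dgat2 and 1 of Scd1. In 6 of 22 the castration arrays lay wholly below the sham arrays, against 3.71% of all probe sets, and in 0 of 22 wholly above, against 4.26%. The log2 difference was below 0 in 17 of 22, against 49.8% of all. For testosterone against sham only Lpin1 was higher at an unadjusted p under 0.05, 1 of 22, where 2.69% of all were, and the arrays of Lpin1 and Srebf1 did not overlap, 2 of 22, against 3.11%. In the opposite direction, 0 of 22 were lower at an unadjusted p under 0.05, against 2.07%, and 0 of 22 lay wholly below, against 3.71%. The log2 difference was above 0 in 15 of 22, against 50% of all. Each pair of these comparisons shares the arrays of 1 group. The members were chosen with earlier results of these data known, so their counts beside the shares of all probe sets are descriptive and no independent evidence.

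The median difference over the 22 probe sets was 0.28 for testosterone against castration, −0.20 for castration against sham and 0.04 for testosterone against sham. The first was 0.17 without testosterone 2 and 0.50 without testosterone 3, and the second was −0.10 without sham 2. The third was −0.06 without testosterone 2, −0.0051 without sham 1, 0.13 without testosterone 3, 0.09 without sham 2 and 0.02 without testosterone 1. With 1 probe set per gene the medians were 0.59, −0.42 and 0.20, beside medians over all genes of −0.01, 0.01 and 0.01. With 1 probe set per gene, 8 of 10 genes were higher with testosterone than after castration and 8 of 10 were lower after castration than in sham, Gpam and Me1 being the exceptions in both. For testosterone against sham the 10 differences were 0.03 to 0.34, but repeated quantile normalisation put Acaca, Acly and Me1 below 0, and leaving out 1 array turned the sign for 7 of the 10.

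Whether the members followed Adipoq was asked over the 9 arrays with exact two-sided permutation tests of the correlation, adjusted over 45036 probe sets. Of 22 member probe sets, 9 had a positive Pearson correlation at an unadjusted p under 0.05, where 3.07% of all probe sets had, and the same count held for Spearman, where 1.88% had. The 9 by Pearson belonged to Scd1, Fasn, Acly, Acaca, Dgat1 and Dgat2. None of the 22 and none of the 45036 passed after adjustment by either measure (0%). These counts too are descriptive, since the members were chosen with earlier results of these data known. The arrays share treatment groups and RNA pools with both genes of each pair, so a common difference in the pools enters every correlation.

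Scd1 followed Adipoq most closely, with r = 0.98 (exact permutation p = 3.03e-05, adjusted p = 0.161) and rho = 0.95 (exact p = 0.000353, adjusted p = 0.563). Without testosterone 2 and sham 2, the 2 arrays farthest from the median of Adipoq, its r was 0.95. Over 18192 genes with 1 probe set each, the highest correlation with Adipoq was that of Scd1. Within groups, taken as deviations from the group means, r was 0.97. The dim second probe set of Scd1 had r = 0.91.

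Fasn had r = 0.93 (exact permutation p = 0.000105, adjusted p = 0.161) and rho = 0.93 (exact p = 0.000816, adjusted p = 0.583), with r = 0.89 without those 2 arrays and 0.91 within groups. Acly had r = 0.87 (exact p = 0.00207, adjusted p = 0.347) and rho = 0.90 (exact p = 0.00211, adjusted p = 0.692), with r = 0.72 without the 2 arrays. For both genes the relation thus remained positive with 7 arrays. Dgat2 had r = 0.82 (exact p = 0.00112, adjusted p = 0.297) and rho = 0.77 (exact p = 0.0214, adjusted p = 0.876), with r = 0.59 without the 2 arrays (exact p = 0.146). Within groups its r was 0.66. The second Dgat2 probe set had r = 0.59 (exact p = 0.0766), 0.36 without the 2 arrays and 0.21 within groups. Among the other Acly probe sets, r was 0.78 for 1438389_x_at and 0.76 for 1439459_x_at. It was 0.24 for 1425326_at, −0.20 for 1439445_x_at and −0.19 for 1446315_at.

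Acaca had r = 0.74 (exact p = 0.0148, adjusted p = 0.471) and rho = 0.82 (exact p = 0.0108, adjusted p = 0.838). Its r was 0.31 without testosterone 2 and sham 2 (exact p = 0.492), so the relation rests on those arrays. Dgat1 had r = 0.69 (exact p = 0.0292, adjusted p = 0.543) and rho = 0.73 (exact p = 0.0311, adjusted p = 0.901), and its r was 0.67 without the 2 arrays (exact p = 0.110) and 0.88 within groups. The second probe sets of Acaca and Dgat1 had r of 0.37 and 0.60. Without the 2 arrays these were −0.26 and −0.08, and within groups 0.39 and 0.58.

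For the other 4 genes the correlation with Adipoq had an unadjusted exact p above 0.05. Srebf1 had r = 0.58 (exact p = 0.104, adjusted p = 0.701) and rho = 0.60 (exact p = 0.0968, adjusted p = 0.957), and r was 0.55 without the 2 arrays. Lpin1 had r = 0.46 (exact p = 0.206, adjusted p = 0.801) and rho = 0.43 (exact p = 0.250, adjusted p = 0.983), with r = 0.63 without the 2 arrays and −0.51 within groups. Gpam and Me1 had r = −0.30 (exact p = 0.477, adjusted p = 0.915) and −0.38 (exact p = 0.335, adjusted p = 0.868), with rho of −0.29 and −0.53. Without the 2 arrays r was −0.23 for Gpam and 0.53 for Me1, so the sign for Me1 rests on those arrays. The second probe sets of Lpin1, Gpam and Me1 had r of 0.36, −0.47 and −0.52.

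**Figure D3:**
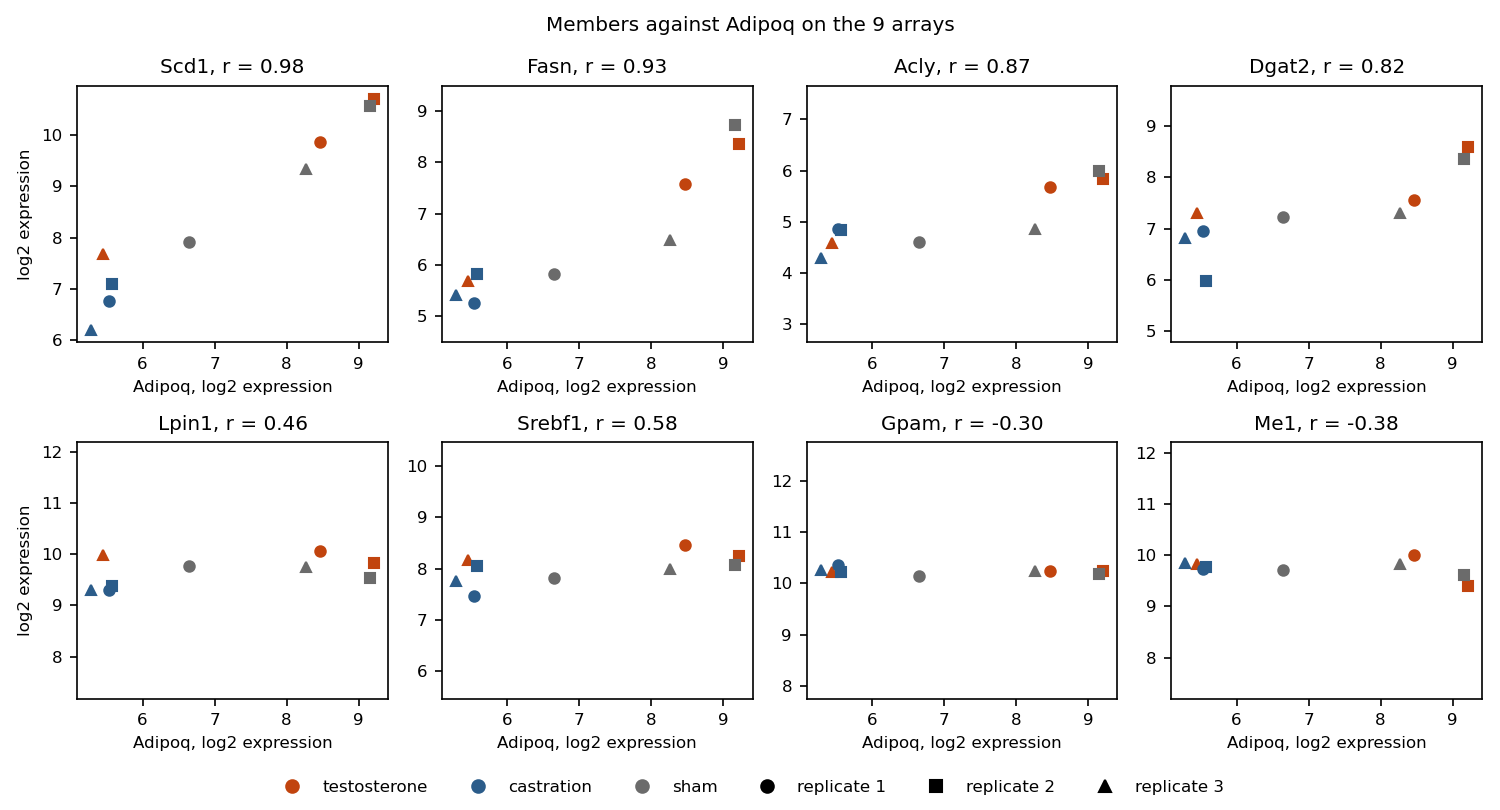
Log2 expression of 8 members (y axis, 5 log2 units high) against log2 expression of Adipoq (x axis) on the 9 arrays, with colour for the group and symbol for the replicate number. Scd1, Fasn, Acly and Dgat2 climb with Adipoq in testosterone and sham arrays alike, and Lpin1 on testosterone 3, at 9.99, lies above the castration arrays, at 9.30 to 9.39, at the same low Adipoq.

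On testosterone 3 the Adipoq level of 5.45 lay within the castration range of 5.29 to 5.58. On this array Fasn at 5.68, Acly at 4.59 and Acaca at 5.22 lay inside the castration ranges of 5.25 to 5.82, 4.30 to 4.86 and 5.0 to 5.47. Scd1 at 7.69 and Dgat2 at 7.31 lay above the castration maxima of 7.10 and 6.96, although both varied with Adipoq over all arrays. Lpin1 at 9.99 and Srebf1 at 8.17 lay above the castration maxima of 9.39 and 8.05. Dgat1 at 4.23 lay below the castration minimum of 4.88. This is 1 array and carries no test.

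With the Adipoq level of each array in the limma model beside the group, the slope on Adipoq had an unadjusted p under 0.05 in 8 of 22 member probe sets, where 5.46% of all probe sets had, and 0 of 22 passed after adjustment, where 0.00222% did. The slope was 0.86 log2 units of Scd1 per log2 unit of Adipoq (SE 0.08, limma adjusted p = 0.0867). For Fasn it was 0.80 (SE 0.13, limma adjusted p = 0.689) and for Lpin1 −0.04 (SE 0.03). At equal Adipoq the difference between testosterone and castration was 0.80 (SE 0.27) for Scd1, −0.08 (SE 0.47) for Fasn, −0.19 (SE 0.27) for Acly and 0.57 (SE 0.45) for Dgat2.

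For Lpin1 it was 0.72 (SE 0.11, limma adjusted p = 0.460), as large as without Adipoq in the model, and for Srebf1 it was 0.40 (SE 0.19, limma adjusted p = 1.00). Between castration and sham the difference at equal Adipoq was −0.37 (SE 0.29) for Scd1, 0.53 (SE 0.50) for Fasn and −0.46 (SE 0.12) for Lpin1. The castration arrays spanned only 5.29 to 5.58 of Adipoq, so these values rest on the slope seen in the testosterone and sham arrays. In no comparison did a probe set pass in that model.

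**Figure D4:**
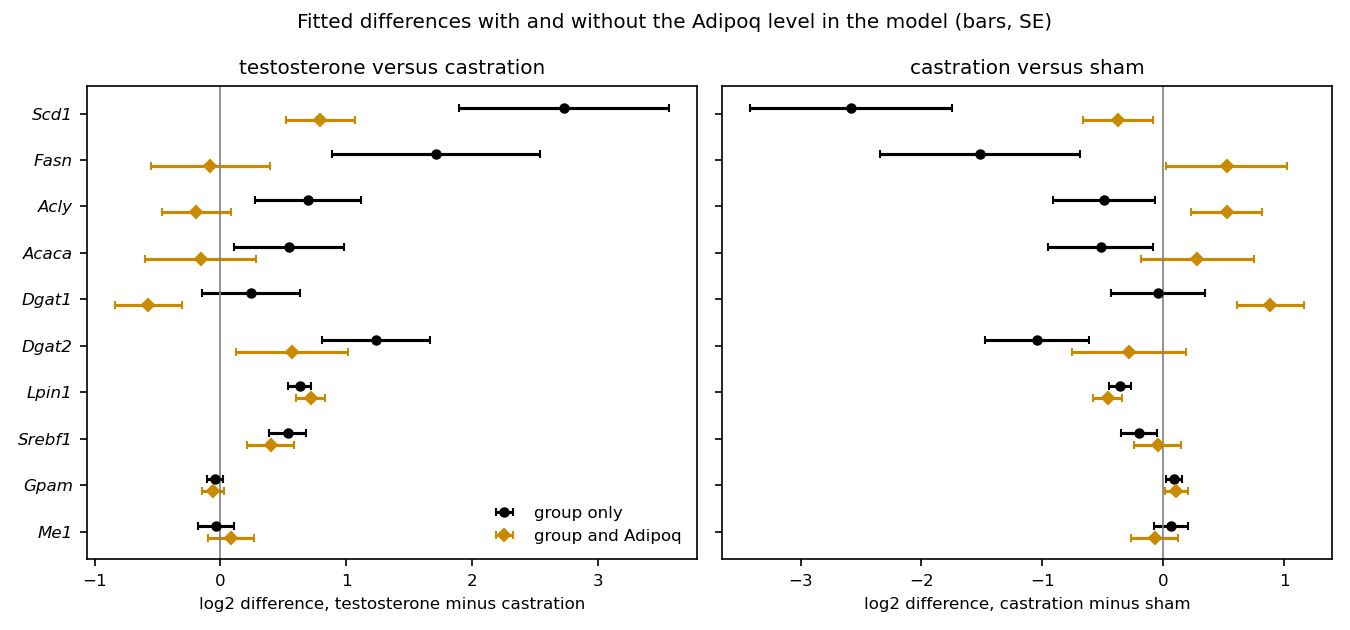
Fitted log2 differences (x axis) of the 10 members with SE bars for testosterone minus castration (left) and castration minus sham (right), from limma with the group alone (black circles) and with the Adipoq level beside it (diamonds). The estimate for Scd1 falls to 0.80 with Adipoq in the model, against 2.73 without it, for testosterone minus castration, while that for Lpin1 is 0.72 and 0.63.

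Members that varied with Adipoq also varied with each other, Dgat1 least. Among Scd1, Fasn, Acly, Acaca and Dgat2 the 10 pairwise correlations over the arrays lay between 0.76 and 0.95. Dgat1 correlated with the same 5 at 0.45 (Dgat2) to 0.61 (Acly). Lpin1 correlated at 0.38 with Fasn and at 0.77 with Srebf1. By Pearson r over the 9 arrays, the genes most like Scd1 were Ifi27l2a at 0.99, Adipoq at 0.98 and Fasn at 0.95. Those most like Fasn were Thrsp at 0.99, which encodes a nuclear protein of lipogenic tissues, the lipid droplet gene Cidec at 0.99 and the carboxylesterase gene Ces1d at 0.98.

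Those most like Lpin1 were Rab12, Slc38a2 and Cdk19, each at 0.96. Slc38a2 encodes a neutral amino acid transporter and Rab12 a small GTPase. For Gpam and Me1 the likest genes were Zbtb5 at 0.97 and Vapa at 0.96. Such values are picked as the highest of 18192 and describe these 9 arrays only.

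Of 20 measured genes of fatty acid synthesis, elongation and activation, 0 passed in any comparison, 12 were above 0 for testosterone against castration with a median of 0.04, and 12 were below 0 for castration against sham. Elovl2 and Elovl6, which elongate fatty acids, differed by 0.17 (SE 0.07) and 0.30 (SE 0.15) between testosterone and castration, and Acacb, the acetyl-CoA carboxylase linked to fatty acid oxidation in muscle, by 0.25 (SE 0.12). Elovl2 and Elovl6 were near or below the array medians, with group means of 2.61 to 2.78 and 2.91 to 3.22. The median correlation of these 20 genes with Adipoq was 0.13, against 0.71 over the 10 members and −0.03 over all genes.

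Of 16 other genes of triglyceride assembly, 7 were above 0 for testosterone against castration (median −0.05) and 0 passed. Lpin2, a second lipin, differed by 0.20 (SE 0.08) at low group means of 3.33 to 3.52, and Gpat3 by 0.29 (SE 0.17). Agpat2, the acyltransferase needed for fat tissue, differed by 0.64 (SE 0.64) and correlated with Adipoq at 0.84. Of 10 genes that supply citrate, acetyl-CoA and NADPH, 5 were above 0 in the same comparison, and 0 passed. Acss1, the mitochondrial acetyl-CoA synthetase, differed by −0.58 (SE 0.16) for testosterone against castration and by 0.76 (SE 0.16, limma adjusted p = 0.708) for castration against sham. Idh2, the mitochondrial NADPH-forming isocitrate dehydrogenase, differed by −0.52 (SE 0.20) and 0.41 (SE 0.20).

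Of 13 lipogenic regulators, 8 were above 0 for testosterone against castration (median 0.02) and 0 passed. Scap, the escort protein that carries SREBP out of the endoplasmic reticulum, differed by 0.32 (SE 0.07, limma adjusted p = 0.614), with testosterone arrays above all castration arrays. Against sham it differed by 0.21 (SE 0.07, limma adjusted p = 0.797). Nr1h3, which encodes the oxysterol receptor LXR alpha, differed by 0.31 (SE 0.09) for castration against sham and by 0.30 (SE 0.09) for testosterone against sham. Thrsp differed by 1.29 (SE 0.69) and −1.26 (SE 0.69) in the comparisons of testosterone with castration and castration with sham, and correlated with Adipoq at 0.94. Of 13 genes of lipolysis and the lipid droplet, 7 were above 0 for testosterone against castration (median 0.17) and 0 passed, with Plin3 at 0.48 (SE 0.24) and Mgll, monoglyceride lipase, at 0.62 (SE 0.38).

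Marker lists of other cell types were set beside the members. Of 9 adipocyte markers, 8 were above 0 for testosterone against castration (median 0.76) and 8 were below 0 for castration against sham (median −0.57), with 0 passing. Pck1 correlated with Adipoq at 0.89, whereas Car3, which muscle fibres also express, correlated at −0.62. Fibroblast markers had 6 of 8 below 0 for testosterone against castration (median −0.57), endothelial markers 8 of 8 (median −0.30), macrophage and lymphocyte markers 0 of 7 (median 0.45), and epidermal markers 3 of 6 (median 0.01). For castration against sham, epidermal markers had 6 of 6 below 0 (median −0.41) and macrophage and lymphocyte markers 6 of 7 (median −0.20). In that comparison 8 of 8 endothelial markers (median 0.34) and 6 of 8 fibroblast markers (median 0.28) were above 0, and 0 markers of these 4 lists passed in either comparison. The Adipoq model above uses 1 transcript, whose own log2 difference was 2.24 (SE 0.94) and −2.56 (SE 0.94) in these 2 comparisons. It cannot tell the number of adipocytes from the Adipoq level per cell. The part of adipocytes and of the other cell types in the member values was not tested.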

How the data were processed

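The table holds log2 expression values for 45101 Affymetrix probe sets, 64 of them controls, on 9 arrays. The authors made the deposited log2 values with RMA, per the submitters' processing notes. Its version was not given in the sources used here. Although RMA includes quantile normalisation, the array medians were not equal (3.15 to 3.26), and a repeat of that step was an alternative. Values were used as deposited. The sample titles give groups and replicate numbers, and no batch or date is given.

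Symbols come from the platform annotation, in which 34945 probe sets have 1 gene, 932 have several and 9160 are unlisted. Of the first, 204 had no match in the RefSeq gene table and kept their symbol. Differences were tested two-sided with limma 3.58.1 in R 4.3.3 in a model of the 3 groups fitted to the 9 arrays, after the 1-way design the submitters describe, with Benjamini-Hochberg adjustment over 45037 probe sets. A gene is represented by its probe set with the highest mean. Correlations with the 1 Adipoq probe set used all 362880 orders of the arrays, so the smallest exact p is 2.76e-06.

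Alternatives were the 2 groups alone, a replicate block, 1 probe set per gene, no dim probe sets, 2 scalings, array weights, an intensity trend, robust variances, unmoderated variances, arrays left out, and Adipoq as a covariate. Named genes are all members, up to 3 genes per list with the smallest p, and the 3 genes most like a member. The members and lists were chosen with earlier results of these data known. Any pair of arrays shared at most 5.78% of identical values. In a simulation of 45037 probe sets, values were drawn from each probe set's mean over the 9 arrays and its spread within groups. For castration against sham, limma found 41, 44, 48 and 49 of 50 probe sets changed by log2 1, 1.5, 2 and 3. It made 9 false calls. Every value was drawn independently, without deviations shared by a whole array, so these counts do not give the power for the real arrays. Python 3.11.15 was used for the rest.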

Additional observations from a re-analysis of the deposited data

How the results depend on the processing

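Over the alternatives, 588 of 630 recomputed member differences kept their direction and their side of the threshold, 3 newly passed, all of them Lpin1 for testosterone against castration, and 39 changed sign, none of them called. Of 140 recomputed correlations with Adipoq, 136 kept their sign and none passed after adjustment. Deviations of same-numbered arrays correlated at −0.47 to 0.31, and those of differently numbered arrays at −0.36 to 0.49. Between testosterone and castration alone, same-numbered arrays were at 0.05, 0.18 and 0.25, and the others at −0.34 to 0.15. With 3 arrays per group these values cannot decide whether the numbers pair the arrays. With the replicate block 0 probe sets passed in each comparison, and the Lpin1 difference had a limma adjusted p of 0.411.

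The count of probe sets passing in limma, 0 in each comparison (1889, 1360 and 2141 at an unadjusted p under 0.05 for castration against sham, testosterone against castration and testosterone against sham), changed as follows. For testosterone against castration it was 16 after repeated quantile normalisation, 7 with an intensity trend, 1 without moderation, 42 with array weights, 20 without testosterone 2 and sham 2, and 0 to 17 with single arrays removed, the 17 being without sham 2. For castration against sham it was 1, 3, 2, 32, 15 and 0 to 2 in the same order, again highest without sham 2. For testosterone against sham it was 1 without moderation and 0 leaving out any 1 array. The member median for testosterone against castration was 0.59 with 1 probe set per gene, 0.53 without dim probe sets and 0.04 with Adipoq as a covariate. The planned repeat with other Adipoq probe sets was not run, since 1 is listed to it.

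With Adipoq as a covariate, castration against sham gave 0.53 for Fasn, 0.28 for Acaca, 0.52 for Acly, 0.89 for Dgat1 and −0.070 for Me1, and testosterone against castration gave −0.081, −0.16, −0.19, −0.57 and 0.086. After repeated quantile normalisation, testosterone against sham gave −0.17 for Acaca, −0.0080 for Acly and −0.051 for Me1. Array weights gave 0.12 for Dgat1 in castration against sham and 0.054 for Me1 in testosterone against castration. Without testosterone 2 and sham 2, testosterone against castration gave −0.18 for Dgat1 and 0.14 for Me1, and testosterone against sham gave −0.23 for Dgat1. Leaving out 1 array, castration against sham ran from −0.22 to 0.14 for Dgat1, and testosterone against castration from −0.18 to 0.72 for Dgat1, −0.16 to 0.14 for Me1 and −0.074 to 0.00088 for Gpam. Testosterone against sham ran from −0.53 to 1.02 for Scd1, −0.40 to 1.05 for Fasn, −0.34 to 0.48 for Acaca, −0.069 to 0.63 for Acly, −0.22 to 0.68 for Dgat1, −0.19 to 0.56 for Dgat2 and −0.10 to 0.20 for Me1. The correlation with Adipoq was 0.53 for Me1 without testosterone 2 and sham 2, and −0.51 for Lpin1 and 0.22 for Gpam within groups. The cause of these changes was not tested.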
